A study of Rattus norvegicus with 28 samples.

Results

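Adora2a encodes the adenosine A2A receptor. On the custom array used here, 2 of 228 features are annotated to it, numbered 23 and 24. Both are described array by array below. The gene was chosen from earlier results of these same arrays, so its log ratios are given as a description and carry no test. Each of the 28 arrays compared brain or spinal cord RNA of male rats injected in the left hindpaw on postnatal day 3 with RNA of uninjected controls of the same region, and the rats were kept until postnatal day 59.

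The groups were PAG, the usual abbreviation for the periaqueductal grey of the midbrain, after carrageenan (5 arrays) and after saline (5), RVM, commonly the rostral ventromedial medulla, after carrageenan (5) and after saline (4), and the left (5) and right (4) lumbar dorsal horn (LDH), both after carrageenan. Carrageenan, a seaweed polysaccharide that provokes local inflammation, was given at 0.25% in 0.9% saline, 1 µl/g; no dose is stated for the saline injections. The controls of every group received no injection. The left LDH lies on the side of the injected paw. A saline group for LDH was not analysed here. Nothing in the labels tells whether each array had its own animal, whether animals were pooled or whether control RNA was shared, so the spread between arrays may be technical.

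The A2A receptor is a cell-surface receptor for adenosine, the nucleoside that builds up when ATP is broken down in active or injured tissue. It couples to a stimulatory G protein and raises cAMP, whereas the A1 and A3 receptors couple to inhibitory G proteins and lower it. In the brain it is best known from striatal neurons, where caffeine acts as its antagonist. In pain pathways adenosine is mostly known for analgesia through the A1 receptor, and A2A receptors on sensory nerves and on immune and glial cells have been linked to both pain and the control of inflammation.

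All values are log2 ratios of the injected over the uninjected sample. That direction is likely rather than certain: the injected sample was channel 1 on every array, but the deposited table does not state which channel is on top. Of 348 pairs of arrays with at least 15 measured features in common, 311 correlated above 0 across features and 7 below -0.3, the lowest at -0.51. The same dyes were used throughout, so the direction was kept, and a dye effect on Adora2a cannot be told apart from that of injection. A ratio within a region holds no expression level, so neither the amount of Adora2a mRNA nor the identity of each tissue was checked. In these bulk samples, fewer cells that express Adora2a and less Adora2a mRNA per cell cannot be told apart. The arrays measured 7 to 195 features each (median 97.5). An exact 0, which made up 55.9% of all values, was taken as not measured.

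Both Adora2a features were found on most PAG carrageenan, PAG saline, RVM saline and left LDH arrays, and on few RVM carrageenan and right LDH arrays. Feature 23 was measured on 18 of 28 arrays: 5 of 5 in PAG carrageenan, 3 of 5 in PAG saline, 1 of 5 in RVM carrageenan, 3 of 4 in RVM saline, 5 of 5 in left LDH and 1 of 4 in right LDH. Feature 24 was measured on 19, in the same numbers except for 4 of 5 in PAG saline, 4 of 5 in left LDH and 2 of 4 in right LDH. Across the array the median feature was measured on 10.5 arrays. Both features were present on 17 arrays, a single one on 3 and neither on 8.

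Whether Adora2a was measured moved with how much of the array was measured. The 17 arrays with both features measured 65 to 195 features (median 104), and the 8 with neither measured 7 to 110 (median 68.5). RVM carrageenan arrays measured a median of 72 features against 143.5 in RVM saline, and 4 of the 5 lacked both Adora2a features. RVM carrageenan arrays 1 and 3 measured 108 and 110 features without either one, and left LDH array 5 measured 65 with both. A missing value is no level of the gene.

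**Figure D1:**
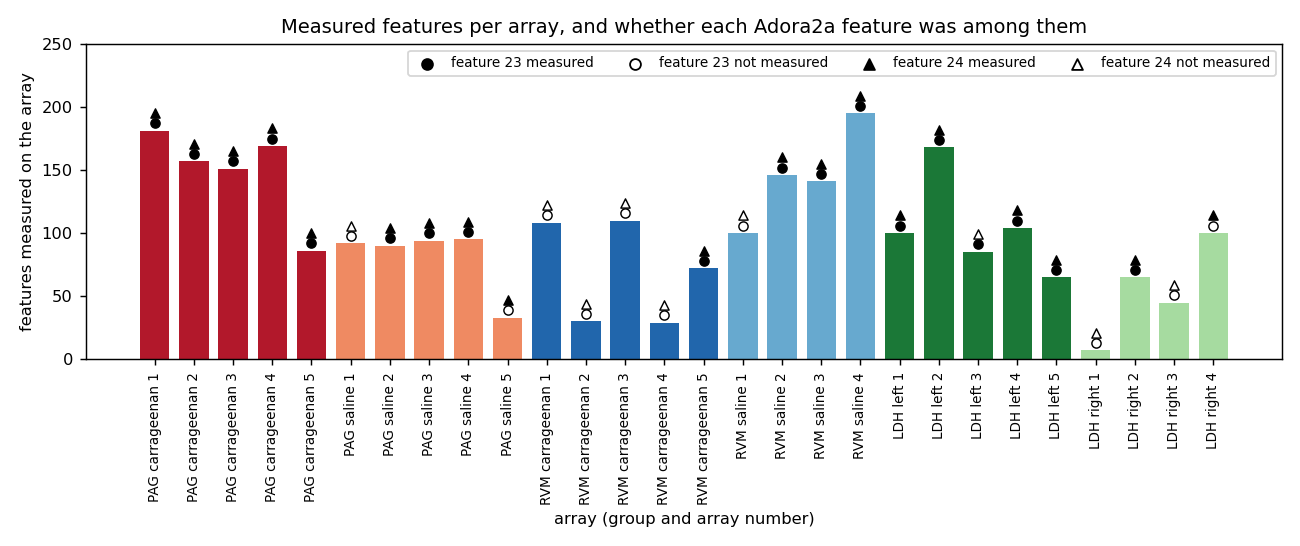
Features measured on each of the 28 arrays (bars, of 228), coloured by group, with a circle for Adora2a feature 23 and a triangle for feature 24 above each bar, filled where that feature was measured. All 5 PAG carrageenan bars carry both filled marks, while 4 of 5 RVM carrageenan bars carry 2 open ones.

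In PAG, feature 23 lay close to 0 on most arrays, with 1 far exception. After carrageenan it read -0.125, 0.44, -0.065, -0.034 and 3.90 on arrays 1 to 5, and after saline 0.33, 0.31 and 0.45 on arrays 2, 3 and 4. Array 5 of the carrageenan group stood apart from the other 4, at a ratio of 14.9 to 1, where feature 23 ranked 2 of 86 measured features. Other features stood apart on this array too: Ntf3 read 3.54 there against at most 0.62 on the other 4, and Sstr1 feature 212 read 3.075 against at most 0.36. Of 80 features that array 5 and at least 3 others of the group measured, array 5 lay apart by Dixon's ratio in 5. Array 4 did so in 12 of 119, and arrays 1 to 3 in 1 or 2 each. The other 4 carrageenan arrays lay between -0.125 and 0.44, and the 3 saline arrays fell within a span narrower than that. Feature 23 averaged 0.82 ± 1.74 after carrageenan (SD, n = 5) and 0.36 ± 0.072 after saline (n = 3). They were 0.46 apart, with a pooled SD of 1.42. Without carrageenan array 5 the carrageenan mean was 0.053 and the difference was -0.31, so 1 array decided its sign.

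Feature 24 gave another picture in PAG. After carrageenan it read 0.20, -0.80, 1.19, -0.43 and -0.55 on arrays 1 to 5, and after saline 2.15, 0.26, 0.12 and 3.26 on arrays 2 to 5. All 4 saline values were above 0, and carrageenan values lay on both sides of it. The ranges overlapped, since carrageenan array 3 exceeded saline arrays 3 and 4. The means were -0.078 ± 0.80 after carrageenan (n = 5) and 1.45 ± 1.52 after saline (n = 4). The difference of -1.52 was above the pooled SD of 1.16 and opposite in sign to that of feature 23. Without carrageenan array 5, that of feature 23 was also below 0 (-0.31). Both features were above 0 on every PAG saline array that measured them. With single arrays left out, the feature 24 difference lay between -1.97 and -0.92. It was -0.92 without saline array 5, on which only 33 features were measured and feature 24 ranked first. The carrageenan mean itself sat at 0: it was 0.10, 0.0083 and 0.039 without array 2, 4 or 5.

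Neither Adora2a feature was among the features called in PAG by limma at an adjusted p of 0.05. Limma fits a linear model and draws the variance of each feature toward a value common to the features tested. Between carrageenan and saline 0 of 78 features were called (0%), and 10 had an unadjusted p below 0.05. Against uninjected controls 11 of 78 were called after carrageenan (14.1%) and 0 of 78 after saline (0%), where 9 had an unadjusted p below 0.05. Because the gene was chosen with these ratios known, nothing is read from its absence among the calls.

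**Figure D2:**
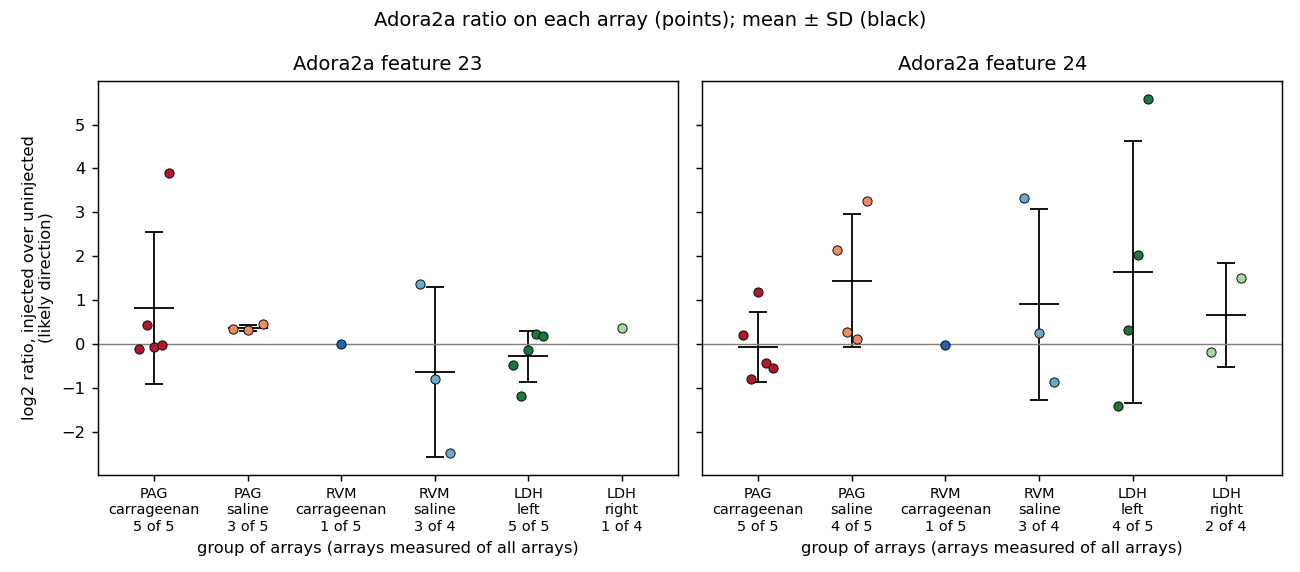
Log2 ratio of injected over uninjected (vertical axis) for Adora2a feature 23 (left) and feature 24 (right), 1 point per measured array in each of the 6 groups, with the mean and SD in black where at least 2 arrays measured it. In feature 23 the single point at 3.90 lifts the PAG carrageenan mean above 4 points near 0, and in feature 24 the 4 PAG saline points all lie above 0.

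In RVM a single carrageenan array measured the gene, so carrageenan was hardly compared with saline there. On RVM carrageenan array 5, feature 23 read 0.001 and feature 24 read -0.02, practically no difference from the uninjected control. After saline, feature 23 read 1.37, -0.80 and -2.49 on arrays 2, 3 and 4, and feature 24 read 3.32, 0.24 and -0.87 on the same arrays. Both features put array 2 highest and array 4 lowest, and the saline values straddled 0 and the carrageenan value.

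The RVM saline means were thus uncertain in sign. They were -0.64 ± 1.93 for feature 23 and 0.90 ± 2.17 for feature 24 (n = 3 each), against single carrageenan values. Without saline array 4 the mean of feature 23 was 0.28, and without saline array 2 that of feature 24 was -0.31. Fewer than 3 carrageenan arrays measured either feature, so Adora2a did not enter the RVM fits, in which 0 of 56 features were called between carrageenan and saline (0%), 1 after carrageenan against uninjected (1.79%) and 3 after saline (5.36%).

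In the dorsal horn feature 24 had the highest Adora2a ratio on any of the 28 arrays. In left LDH it read -1.41, 0.33, 2.02 and 5.59 on arrays 1, 2, 4 and 5, and in right LDH -0.182 and 1.497 on arrays 2 and 4. The value of 5.59, a ratio of 48 to 1, was the highest of 65 measured features on its array. The left values surrounded the right ones. Their means were 1.63 ± 2.98 on the left (n = 4) and 0.66 ± 1.19 on the right (n = 2), and the difference of 0.97 was below the pooled SD of 2.65. Without left array 5 it was -0.34.

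Feature 23 stayed within a narrower range in LDH. It read -0.47, -1.19, -0.14, 0.22 and 0.18 on left arrays 1 to 5, with a mean of -0.28 ± 0.58 (n = 5), and 0.36 on right array 2. The single right value lay above all 5 left ones. On left array 5, where feature 24 read 5.59, feature 23 read 0.18. Neither feature had 3 right LDH arrays, so Adora2a was not in the LDH fits, in which 0 of 29 features were called between sides or against uninjected on either side (0% each). At an unadjusted p below 0.05 those 3 limma comparisons had 0, 5 and 1 features.

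Between regions, the ratios of the same injection were set side by side. After saline, feature 23 averaged 0.36 in PAG and -0.64 in RVM, 1.00 apart with a pooled SD of 1.37. Feature 24 averaged 1.45 in PAG and 0.90 in RVM, 0.55 apart with a pooled SD of 1.81, and the sign of that difference turned without PAG saline array 5 (-0.057) or RVM saline array 4 (-0.34). The gap of feature 23 was 0.080 without RVM saline array 4 and 2.01 without RVM saline array 2. Neither gap exceeded the spread between arrays. After carrageenan, RVM array 5 was the single RVM value and lay inside the PAG range in both features. Limma called 0 of 72 features between regions after saline and 0 of 59 after carrageenan (0% each), with 7 and 3 features at an unadjusted p below 0.05.

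Ordered by mean over the groups with at least 2 measured arrays, feature 23 ran from PAG carrageenan (0.82) over PAG saline (0.36) and left LDH (-0.28) to RVM saline (-0.64). Feature 24 ran from left LDH (1.63) over PAG saline (1.45), RVM saline (0.90) and right LDH (0.66) to PAG carrageenan (-0.078). PAG carrageenan was first in one order and last in the other, and both places rested on single arrays. Without PAG carrageenan array 5 its mean of 0.053 in feature 23 was below that of PAG saline. In feature 24 the mean of RVM saline without array 2 (-0.31) and that of right LDH without array 4 (-0.18) were below that of PAG carrageenan. Of the neighbours in these orders, PAG saline and left LDH in feature 23 were farther apart (0.65) than the larger of their SDs, and no other neighbours were.

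The 2 features of the gene were next compared on the 17 arrays that measured both. They lay on the same side of 0 on 9 arrays (6 above and 3 below) and on opposite sides on 8. Their values were a median of 1.24 log2 units apart, with extremes of 0.021 on RVM carrageenan array 5 and 5.40 on left LDH array 5. Pearson's r across these arrays was 0.14 and Spearman's rho 0.13. Without PAG carrageenan array 5 r was 0.42 over 16 arrays. The points share arrays, regions and dye orientation, so r is a description only.

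Such weak agreement was usual on this array. Over 20 pairs of features of 1 gene that shared at least 10 arrays, in 13 genes, the median r was 0.053, the lowest -0.49 and the highest 0.58, and 9 pairs exceeded the Adora2a pair. The median over 5904 pairs of features of different genes was 0.026. The pair lay on the same side of 0 on 52.9% of its arrays, equal to the median pair. The annotation names a different source sequence for each of the Adora2a features; the probe sequences were not used here. With both features averaged on each array, the mean was 0.37 ± 0.79 in PAG carrageenan (n = 5), 1.27 ± 1.40 in PAG saline (n = 4, above 0 on 4 of 4), 0.13 ± 2.04 in RVM saline (n = 3), 0.50 ± 1.53 in left LDH (n = 5) and 0.79 ± 1.00 in right LDH (n = 2).

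**Figure D3:**
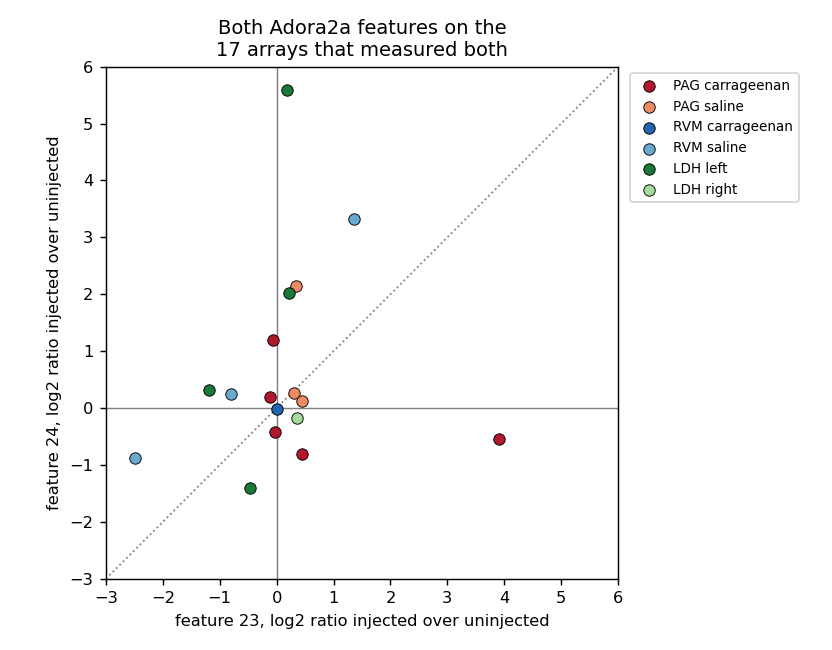
Log2 ratio of feature 24 (vertical axis) against feature 23 (horizontal axis), 1 point for each of the 17 arrays that measured both, coloured by group, with the line of equality dotted. PAG carrageenan array 5 lies far right at 3.90 and -0.55, and left LDH array 5 far up at 0.18 and 5.59.

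Feature 24 was the more variable of the 2 and often sat near the top of its array. It was above 0 on 12 of 19 arrays (median 0.24, range -1.41 to 5.59), beyond 1 log2 unit in either direction on 8, and above the 90th percentile of the measured features of its array on 7. These were PAG carrageenan array 3, PAG saline arrays 2 and 5, RVM saline array 2, left LDH arrays 4 and 5 and right LDH array 4, in all 3 regions and after both injections. It was below the 10th percentile on 0 arrays. Feature 23 was above 0 on 10 of 18 arrays (median 0.0925, range -2.49 to 3.90), beyond 1 log2 unit on 4, above the 90th percentile on 1 and below the 10th on 1. Among the 121 features measured on at least 10 arrays, feature 24 had an SD of 1.76, place 17 from the highest, and feature 23 an SD of 1.24, place 42, where the median was 0.93.

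The other adenosine receptors each had 1 feature, and all were measured on fewer arrays than Adora2a. Adora1, the A1 receptor gene, read 1.55, 2.14, -0.84 and 0.40 on PAG carrageenan arrays 1 to 4, and -0.17 and -0.064 on PAG saline arrays 1 and 4. Its ratio was above 0 on 3 of 4 PAG carrageenan arrays and below 0 on both saline ones. In RVM it read 0.48 on the single carrageenan array measured, against -1.94, -0.94 and -0.43 on saline arrays 2 to 4. In left LDH it read -0.96 and -1.28, and no right LDH array measured it. Adora1 lay on the opposite side of 0 from Adora2a feature 24 on 7 of the 10 arrays they shared (r = -0.49), and on the same side as feature 23 on 6 of 10 (r = 0.10).

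Adora2b encodes the A2B receptor, a low-affinity receptor that also raises cAMP. It read 1.90, -0.38, 1.40, -0.61 and 0.24 on PAG carrageenan arrays 1 to 5, against -3.56 on the single PAG saline array that measured it. On that array, number 2, Adora2a feature 24 read 2.15. Adora2b averaged -0.094 ± 0.12 in RVM carrageenan (n = 2) against 0.38 ± 0.85 in RVM saline (n = 3), and -0.94 ± 1.39 in left LDH (n = 3). It was on the side of Adora2a feature 24 on 9 of 12 shared arrays (r = 0.045) and of feature 23 on 7 of 12 (r = 0.20).

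Adora3, the A3 receptor gene, was the one adenosine receptor gene below 0 on every PAG array that measured it. It read -1.59, -1.27, -1.55, -0.67 and -3.80 on carrageenan arrays 1 to 5, and -4.73 and -0.40 on saline arrays 1 and 2. The saline values enclosed those after carrageenan. The PAG means were -1.78 ± 1.19 after carrageenan (n = 5) and -2.56 ± 3.06 after saline (n = 2). It averaged -0.57 ± 1.49 in RVM saline (n = 4, below 0 on 2 of 4) and 0.25 ± 0.36 in left LDH (n = 3), and was on no RVM carrageenan or right LDH array. On PAG carrageenan array 5, where Adora2a feature 23 was at its highest, Adora3 was at its lowest for that group. Adora1, Adora2b and Adora3 were not in the 11 comparisons, since each fit required 3 measured arrays in both of its groups. With at least 2 arrays, Adora3 and Adora1 entered the PAG fit of 100 features and did not pass against uninjected after carrageenan (limma adjusted p = 0.125 and 0.312) or after saline (0.378 and 0.972).

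**Figure D4:**
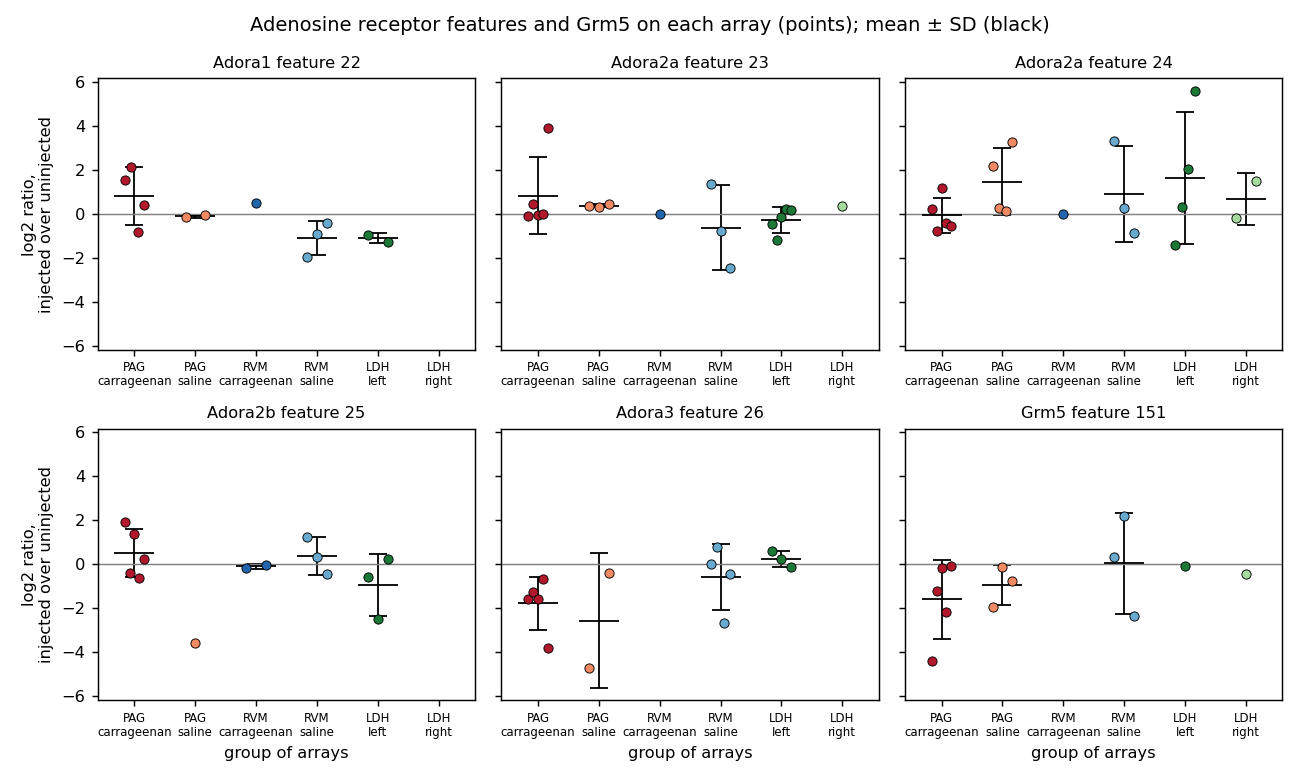
Log2 ratio of injected over uninjected (vertical axis) for the 5 adenosine receptor features and Grm5, 1 point per measured array in each group, with the mean and SD in black where at least 2 arrays measured it. Adora3 and Grm5 lie below 0 on all PAG points, whereas Adora2a feature 24 lies above 0 on all PAG saline points.

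Grm5, the metabotropic glutamate receptor 5 that has been described in complexes with A2A receptors in striatum, was the only A2A partner on the array beside Adora1. It read -4.39, -1.21, -0.16, -2.15 and -0.058 on PAG carrageenan arrays 1 to 5, and -1.94, -0.13 and -0.78 on PAG saline arrays 2, 3 and 5. All 8 values were below 0 and the groups overlapped. The mean after carrageenan was -1.59 ± 1.78 (n = 5, unadjusted 95% interval -3.07 to -0.12) and did not pass (limma adjusted p = 0.121), nor did that after saline, -0.95 ± 0.91 (n = 3, adjusted p = 0.659). The difference between them was -0.65 (unadjusted 95% interval -3.05 to 1.76, limma adjusted p = 0.831). In RVM saline it averaged 0.048 ± 2.28 (n = 3).

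Of the receptors that raise cAMP as Adora2a does, 10 genes with 11 features were on the array, and at most 3 of these features entered any comparison. Between carrageenan and saline in PAG all 3 were above 0 (median difference 0.85, against 0.14 over all 78 features) and 0 passed. In RVM 2 of 3 were below 0 (median -0.51, against -0.097 over all 56) and 0 passed. The single call of this list was Vipr2 feature 227, a receptor for vasoactive intestinal peptide, which was below 0 in RVM saline against uninjected. It was 1 of 3 members tested in that comparison, in which 5.36% of all features were called. It read -0.68 ± 0.30 there (n = 4, below 0 on 4 of 4, limma adjusted p = 0.0409). It passed under 7 of 14 alternative settings, with adjusted p from 0.0293 to 0.699. Feature 227 was also below 0 on 4 of 4 RVM carrageenan arrays, at -0.35 ± 0.27 (limma adjusted p = 0.511). The RVM difference between carrageenan and saline was 0.33 (limma adjusted p = 0.728). In PAG feature 227 averaged -0.53 ± 0.38 after saline (n = 4) and 1.72 ± 2.93 after carrageenan (n = 5, limma adjusted p = 0.231). The carrageenan values ran from -0.575 to 5.263 with a median of -0.163, and 3 of 5 were below 0. The PAG difference between carrageenan and saline was 2.25 (limma adjusted p = 0.432). The other Vipr2 feature, 226, read -1.24 and 0.56 in RVM saline (n = 2).

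Genes known for their shared expression with Adora2a in striatum were represented by Penk, the enkephalin precursor, with 3 features. Features 194 and 196 were tested and 0 passed in any comparison. They lay on opposite sides in RVM carrageenan, at -0.90 ± 0.87 and 0.70 ± 0.94 (n = 3 each, limma adjusted p = 0.511 and 0.723). Their PAG differences between carrageenan and saline were 0.81 and -0.074 (limma adjusted p = 0.636 and 0.911). Feature 197 was measured on too few arrays to be tested. It averaged -1.225 ± 0.64 in PAG carrageenan (n = 3, below 0 on 3 of 3) and 1.19 ± 0.29 in PAG saline (n = 2, above 0 on 2 of 2). Of the listed cytokines, 6 genes with 8 features were present (Il1a, Il1b, Il2, Il4, Il6 and Il10). At most 2 of these features were tested in a comparison, and 0 passed. With 0% to 14.1% of all features called in these comparisons, nothing is read from 0 calls among so few, nor for Penk. The cytokine features with the smallest p were Il1b in RVM saline, at 0.67 ± 0.78 (n = 4, limma adjusted p = 0.216), and Il10 in left LDH, at 2.00 ± 2.48 (n = 3, limma adjusted p = 0.293). Il10 read 4.82, 1.07 and 0.125 on left LDH arrays 1, 2 and 4. Il1b and Il10 encode interleukin 1 beta and interleukin 10. Enzymes and transporters that handle adenosine and the P2 receptors for ATP had no feature annotated to a listed gene. In a list of cell type markers, which again held Penk, 5 genes with 8 features were present. Of the 4 tested in PAG carrageenan against uninjected, Penk features 194 and 196 among them, 1 passed, beside 14.1% of all features there. This was Slc6a4, the serotonin transporter gene, at 0.88 ± 0.39 (n = 4, above 0 on 4 of 4, limma adjusted p = 0.0224); it passed under 7 of 12 alternatives, with adjusted p from 0.0183 to 0.13. Slc6a4 was also above 0 on 3 of 3 PAG saline arrays, at 0.48 ± 0.19 (limma adjusted p = 0.383). The PAG difference between carrageenan and saline was 0.39 (limma adjusted p = 0.432). The part of Slc6a4 in the Adora2a ratios was not tested.

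Features whose ratios ran most like those of Adora2a were ranked by Pearson's r over the arrays that measured both, with at least 10 such arrays. For feature 23, among 102 features, these were Sstr1 feature 212, a somatostatin receptor (r = 0.72, 13 arrays), Grm3, a metabotropic glutamate receptor (0.70, 16), Gria2 feature 83, an AMPA receptor subunit (0.70, 14), Ntf3, the neurotrophin 3 gene (0.67, 17), and Grm4 feature 150, another metabotropic glutamate receptor (0.60, 12). PAG carrageenan array 5 carried part of this. Without it Ntf3 was at -0.44 and in place 98, and Sstr1 at 0.38 and in place 12, while Grm3 (0.77), Gria2 (0.63) and Grm4 feature 150 (0.53) were in places 1, 2 and 4. The other Grm4 feature, 149, was at 0.28 over 16 arrays and at 0.21 without PAG carrageenan array 5.

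For feature 24, among 103 features, the closest were Grin1 feature 176, the obligatory NMDA receptor subunit (r = 0.65, 11 arrays), Grin2d feature 167, another NMDA receptor subunit (0.58, 14), the unnamed feature 142 (0.58, 19), Grm6, a metabotropic glutamate receptor (0.57, 13), and the unnamed feature 71 (0.49, 17). Without left LDH array 5, the highest for feature 24, these 5 were in places 1 to 5. Grin1 feature 176 and Grm6 were not measured on that array, so leaving it out could not change their r. Over all shared arrays, no named gene appeared in both lists of the 5 closest. Without PAG carrageenan array 5, however, Grin2d feature 171 was in place 3 for feature 23 (0.56). Its r with feature 24 was 0.36 over 19 arrays. Grin2d feature 167 was at -0.32 with feature 23 over 14 arrays, and at 0.24 without PAG carrageenan array 5. At the other end Il11, the interleukin 11 gene, was among the 3 lowest for both features, at -0.77 for feature 23 and -0.51 for feature 24 (11 arrays each). The others were unnamed: features 168 (-0.56) and 205 (-0.47) for feature 23, and features 144 (-0.60) and 145 (-0.54) for feature 24. All these points share arrays and dye orientation, and each r is a description of few arrays.

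**Figure D5:**
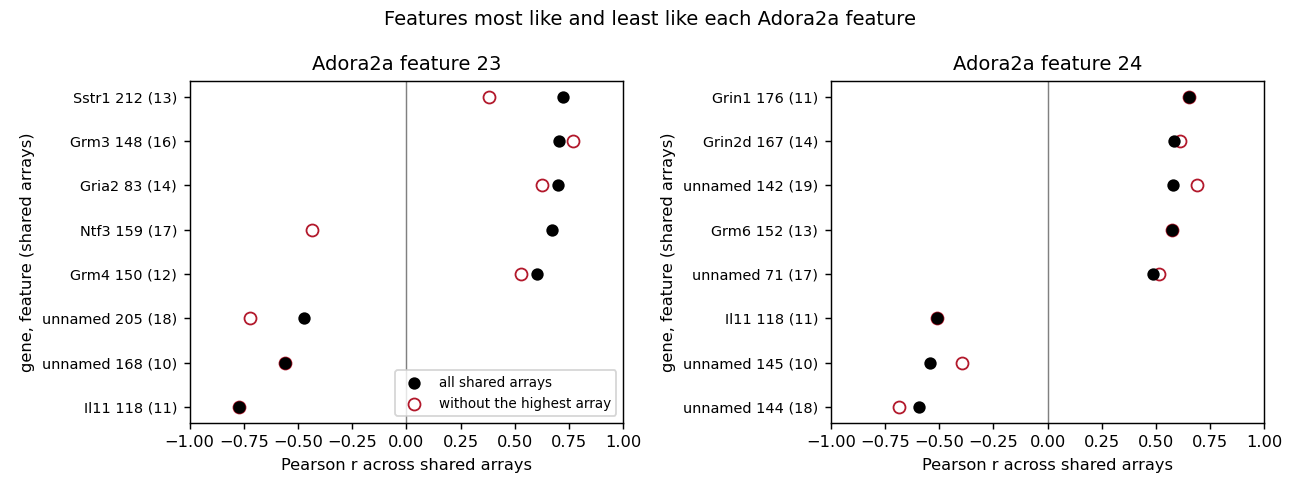
Pearson's r across shared arrays (horizontal axis) of the 5 features most like and the 3 least like Adora2a feature 23 (left) and feature 24 (right), filled over all shared arrays and open without the array on which that Adora2a feature was highest. For feature 23, Ntf3 stands at 0.67 over all shared arrays and at -0.44 without PAG carrageenan array 5.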

How the data were processed

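The authors deposited 1 log2 ratio per feature and array; base 2 was inferred from the values (-13.245 to 10.459), and no source used here states direction, centring, spot filter, background correction or normalization. Per the labels' protocols, 5 µg of RNA per sample was reverse transcribed and detected with a 3DNA kit, injected and uninjected samples each in their own Alexa dye, without dye swap. Array medians lay between -0.061 and 0.083, and values were used as deposited, with exact 0 as not measured (0.001 and -0.001 occur 9 and 14 times). Features were named from the platform annotation, updated through a RefSeq table (GRCr8): 202 had a symbol, 26 none, and 191 matched.

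Two-sided limma tests (lmFit with eBayes; limma 3.58.1 under R 4.3.3) were fitted to all features with at least 3 measured arrays in each group, with Benjamini-Hochberg adjustment over all features tested in each of 11 comparisons and a threshold of 0.05. Means ± SD, ranks and correlations were computed in Python 3.11.15. The number of arrays limits the precision.

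Adora2a, the lists and the rule for named features were chosen with earlier results of these data known. The rule took all features of Adora2a, the other adenosine receptors and A2A partners, the 5 most and 3 least correlated features, and in other lists those that passed or the 2 with the smallest p. Alternatives were median centring, quantile normalization, zeros kept, 1 fit of all groups, at least 2 measured arrays, the replicate number as a block and leaving out each array. The median, the mean of both features and r without the highest array were added after seeing the data.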

Additional observations from a re-analysis of the deposited data

Results flagged for a closer look

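Dixon's ratio (the gap of an extreme array to its neighbour over the group's range, at the 95% critical value) was examined in 69 groups of 4 or 5 arrays. These covered 27 of the features named in the text, and 12 values lay apart, some of them on the same array. Chance gives about 1 in 20 groups where features are not chosen for their values. That rate does not apply to Adora2a or to the features picked for their likeness to it, and for these the ratio is a description.

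Adora2a feature 23 read 3.901 on PAG carrageenan array 5, whereas the other 4 arrays averaged 0.053 ± 0.26 (SD). On the same array feature 24 read -0.549. Ntf3 read 3.542 there (others 0.34 ± 0.21) and Sstr1 feature 212 read 3.075 (others -0.24 ± 0.41). Both were picked for their likeness to feature 23, to which this array contributed.

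On PAG carrageenan array 4, Il1b feature 117 read 3.075 (others 0.22 ± 0.26) and Il10 feature 137 read 3.398 (others 0.38 ± 0.21), while Adora2a read -0.034 and -0.425 there. On RVM saline array 2, where Adora2a feature 24 read 3.324, the unnamed features 142 and 144 read 0.936 (others -0.16 ± 0.095) and -1.643 (others -0.21 ± 0.020). On PAG saline arrays, Ntf3 read 0.237 on array 2 (others -0.33 ± 0.030) and Grin2d feature 167 read 0.051 on array 5 (others -0.56 ± 0.090). In left LDH, Vipr2 feature 227 read 3.415 (others -0.57 ± 0.50) and the unnamed feature 205 read 0.492 (others -0.018 ± 0.045) on array 2, and the unnamed feature 71 read -1.518 on array 1 (others 0.021 ± 0.18).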

How the results depend on the processing

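The 5 Adora2a differences with at least 2 measured arrays in both groups stayed within the pooled SD under the settings tried, which gave 19 values, and with single arrays left out, which gave 36. Within that spread, signs turned without the arrays named above. With an array left out, 0 of 34 means moved by more than the SD, but leaving out 1 array cannot move a group mean that far. It can hardly move a difference by the pooled SD either, so these leave-out counts measure no stability. Some means turned sign too, as given above for RVM saline. Under other settings, 4 of 38 values of the means moved by more than the SD. Those that moved were of feature 23: in PAG saline 0.49 with quantile normalization, 0.22 with zeros kept and 1.27 with both features averaged, and in left LDH 0.50 with both averaged. The median of feature 23 in PAG carrageenan was -0.034 against a mean of 0.82.

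The counts of called features changed as follows. With zeros kept they were 1 (PAG, carrageenan against saline), 4 (RVM, carrageenan against saline), 0 (RVM carrageenan), 9 (RVM saline), 1 (between regions, carrageenan) and 4 (between regions, saline). In 1 fit of all groups they were 1 (PAG, between injections), 7 (PAG carrageenan), 1 (PAG saline), 0 (RVM carrageenan) and 0 (RVM saline). Quantile normalization gave 0 for PAG carrageenan, 4 for PAG saline and 1 for RVM saline, and at least 2 measured arrays gave 1 for RVM between injections. Leaving out each array gave 1 to 9 for PAG carrageenan, 0 to 1 for PAG saline, 0 to 1 for RVM between injections, 0 to 1 for RVM carrageenan and 0 to 9 for RVM saline. Other counts were within 1.5 times the reported ones.

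The labels state no pairing by array number. Of 21 same-numbered pairs 9 correlated above 0.1 (range -0.26 to 0.45). Arrays recur between comparisons, and in 12 of 42 checks an array was closest to its own number. With the replicate block 0 features were called in all 5 comparisons between groups, and the PAG difference of Adora2a feature 23 was -0.25 and the saline difference of feature 24 between regions -0.057.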
